A study of Mus musculus with 15 samples.

Results

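The genes followed here build and run the lysosome, and they were measured in macrophages sorted from a mouse glioma. The 51 members encode 14 glycan hydrolases, 7 lipid hydrolases and lipid-binding proteins, 3 other lumenal proteins (the peptidases Tpp1 and Scpep1, and progranulin, Grn), 7 membrane proteins, 16 proton pump genes and 4 transcription factors of the TFEB family. They were chosen by gene symbol from the 55486 genes of the count table, and cathepsins were not among them. All 51 were found, and all 51 passed the filter on low counts that left 14843 genes for testing.

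Lysosomes are acidic organelles that digest what a macrophage takes up by phagocytosis or endocytosis, or delivers by autophagy. Their soluble hydrolases remove sugars from glycoproteins, glycolipids and glycosaminoglycans, split lipids and cut peptides, and the cholesterol set free leaves through NPC2 and NPC1. A vacuolar proton pump acidifies the lumen. Its V0 sector sits in the membrane and carries protons, and its V1 sector splits ATP. TFEB and its relatives TFE3, MITF and TFEC can bind a DNA element called CLEAR that lies near many lysosomal genes.

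All libraries were bulk RNA-seq of cells from primary brain tumours of mice labelled Ink4a/ArfKO, PDGFB. In this model PDGFB is expressed in Nestin-positive progenitor cells, and the tumours arise in mice that lack Ink4a/Arf, so that every group shares both features and no group is without a tumour. The 4 groups were non-lipid-laden microglia, the resident macrophages of the brain (4 libraries), lipid-laden microglia (4), non-lipid-laden monocyte-derived macrophages, which enter from the blood and are written MDM below (4), and lipid-laden MDM (3). Microglia and MDM named without a qualifier are the non-lipid-laden cells. No further treatment is labelled. Neither the age of the mice nor the stain and gate behind the lipid-laden label is given in the sources used here. Library values are listed in the order of the title numbers 221, 224, 431 and 718, and for lipid-laden MDM number 431 was not analysed here. The labels do not say whether libraries came from separate mice, so p-values measure the spread between these libraries, which may in part be technical.

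Total counts per library ranged from 7798952 to 11419338. The 51 members together took 2.48% ± 0.11 of counts in microglia, 2.57% ± 0.19 in lipid-laden microglia, 1.77% ± 0.042 in MDM and 2.68% ± 0.27 in lipid-laden MDM (SD, n = 4, 4, 4 and 3). Cdkn2a, the gene deleted in Ink4a/ArfKO mice, had 0 to 17 counts per library. Labelled origins were checked against 7 microglial and 8 MDM marker genes, all of which had counts in every group. Summed microglial markers lay at 5892 to 9442 CPM (counts scaled by library size) in microglia, 3049 to 9478 in lipid-laden microglia, 1235 to 1990 in MDM and 3507 to 5184 in lipid-laden MDM. MDM markers lay at 299 to 474, 354 to 856, 3389 to 3967 and 1464 to 1791 CPM in the same order, so lipid-laden MDM lay between MDM and microglia for both lists. On the second principal component of log2 CPM (11.1% of the variance), both lipid-laden libraries of number 221 stood apart, at -119 and -67.4. Results were therefore also computed without this pair. All 4 libraries of number 224 had counts of the Y-linked gene Ddx3y (1105 to 1873) and at most 4 of Xist, while the other 11 had 0 of Ddx3y and 1424 to 4228 of Xist, so each group held both kinds. Of the genes called below, Hexa, Glb1, Arsb, Galc, Grn, Lamp1 and Npc1 share between 68 and 2411 exonic bases with another annotated gene. Since the sources used here do not give the strand setting of the counting, reads of such neighbours could not be told apart.

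Promoter sequences were looked up to see which members carry the DNA elements of the TFEB family. RefSeq windows (GRCm38.p6, 250 bases before to 50 after the start) were matched for 43 of the 51 members. The CLEAR core TCACGTGA, which reads the same on both strands and contains the E-box CACGTG, was in 4 members (Mcoln1, Atp6v0d1, Atp6v0e and Atp6v1a), or 9.30% of those matched against 1.12% of 27025 genes. The E-box, inside a CLEAR core or not, was in 11 (25.6% against 8.09%). The related M-box TCATGTGA, searched on both strands, was in 3 (Tpp1, Grn and Atp6v0c), or 6.98% against 1.15%. Of the 16 matched members that rose in lipid-laden MDM (below), 1 had the CLEAR core and 2 the M-box, and of the 27 other matched members 3 and 1 had them. A match is a description of letters and was not tested for binding. The stretches below are shown because Tpp1 and Grn were among the 4 members whose lipid-load effect differed by origin, Atp6v1a was the member with a CLEAR core that rose in lipid-laden MDM, and Mcoln1 had a CLEAR core and passed no test. They read 5′ to 3′ on the gene's strand, hold at most 24 bases of annotated exon, and have the M-box or CLEAR core in capitals. Their positions are chr7:105752212-105752485 for Tpp1 (minus strand), chr11:102430257-102430338 for Grn (plus strand), chr16:44139306-44139485 for Atp6v1a (minus strand) and chr8:3500269-3500480 for Mcoln1 (plus strand).
Tpp1: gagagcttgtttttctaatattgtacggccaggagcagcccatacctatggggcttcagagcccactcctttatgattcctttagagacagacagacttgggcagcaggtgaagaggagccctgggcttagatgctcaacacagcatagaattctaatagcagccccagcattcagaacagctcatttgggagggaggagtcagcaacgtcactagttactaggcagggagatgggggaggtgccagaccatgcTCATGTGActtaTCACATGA
Grn: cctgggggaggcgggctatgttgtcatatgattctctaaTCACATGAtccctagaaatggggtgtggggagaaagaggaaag
Atp6v1a: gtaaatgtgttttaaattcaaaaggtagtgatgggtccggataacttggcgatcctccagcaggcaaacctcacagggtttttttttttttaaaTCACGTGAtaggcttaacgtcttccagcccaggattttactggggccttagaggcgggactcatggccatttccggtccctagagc
Mcoln1: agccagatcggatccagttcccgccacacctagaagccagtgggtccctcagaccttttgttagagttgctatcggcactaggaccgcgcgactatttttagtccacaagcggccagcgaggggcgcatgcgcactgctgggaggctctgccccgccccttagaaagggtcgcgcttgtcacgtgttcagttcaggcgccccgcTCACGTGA

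**Figure D1:**
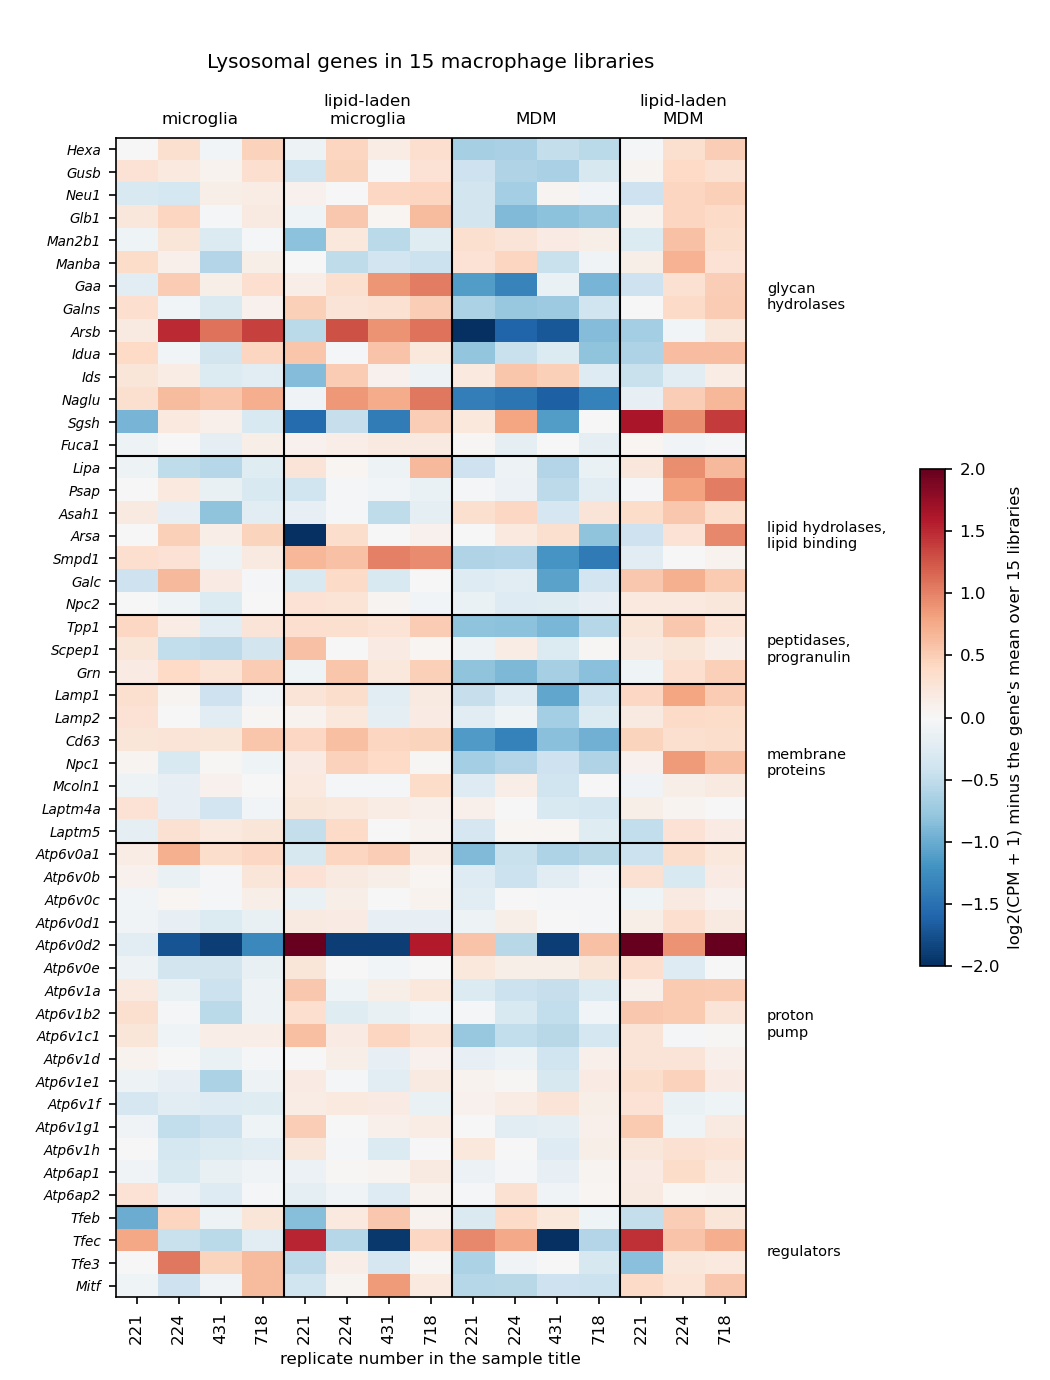
Heat map of the 51 members (rows, grouped by role) in 15 libraries (columns, grouped by cell type and lipid load and marked by title number). Colour shows log2(CPM + 1) minus the gene's mean over the 15 libraries, with the scale ending at 2 in either direction; the MDM columns are blue for Cd63, Naglu, Grn, Tpp1 and Arsb, and the lipid-laden MDM columns are not as blue for these genes.

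Levels differed widely among members. Mean levels over the 15 libraries ran from 6.10 CPM for Atp6v0d2 to 2691 CPM for Grn, with 2 members under 10 CPM (Sgsh and Atp6v0d2) and 8 over 1000 CPM. Levels were also set on exonic length, for which all annotated exons of a gene were merged. This length can exceed that of the transcripts expressed, so an order per kb depends on the annotation and may differ per transcript. On this scale Grn was highest in microglia, at 926 CPM per kb. It was followed by Hexa, a lysosomal hexosaminidase gene (592), and Laptm5, a membrane protein of blood-cell lysosomes (571). The standard deviations of these 3 were 96.2, 102 and 80.9 CPM per kb, so that Hexa and Laptm5 did not differ beyond their spread. In lipid-laden MDM the order per kb was Grn (872 ± 167), Lamp1 (666 ± 91.3), Hexa (626 ± 112) and Psap (614 ± 209), where each overlapped its neighbour within 1 SD (n = 3). The 3 regulators Tfeb, Tfec and Mitf lay under 6 CPM per kb in each group, while Tfe3 lay between 11.7 CPM per kb in MDM and 20.8 in microglia.

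MDM were first compared with microglia, to describe the effect of origin apart from lipid load. Lower in MDM were 7 of 14 glycan hydrolases and 1 of 7 lipid hydrolases and lipid-binding proteins, as were Tpp1, Grn, the membrane protein genes Cd63 and Npc1, 2 pump subunits and Tfe3. Of the 16 pump genes 2 were higher and 2 lower, near the shares over all genes (10.7% and 12.5%). In all, 2 members were higher and 15 lower (edgeR quasi-likelihood test, Benjamini-Hochberg adjusted p under 0.05 over all genes tested), where 10.7% of all genes were higher and 12.5% lower. The median log2 fold change was -0.16 over the members and -0.12 over all genes. For glycan hydrolases alone it was -0.69, and for the pump 0.08.

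Naglu, which removes N-acetylglucosamine from heparan sulfate (ENSMUSG00000001751, chromosome 11, 101070012 to 101077672, mm10), stood at 227, 283, 268 and 302 CPM in microglia and at 68.9, 65.1, 57.9 and 70.9 CPM in MDM. The groups lay far apart and did not overlap (log2 fold change -2.04 with SE 0.22, edgeR adjusted p = 1.01e-05). Arsb, a sulfatase that acts on dermatan and chondroitin sulfate (ENSMUSG00000042082, chromosome 13, 93771630 to 93943016, mm10), was at 166, 409, 308 and 376 CPM in microglia, where the library of number 221 was lowest. In MDM it was at 31.8, 47.3, 44.1 and 79.6 CPM, below every microglial library (log2 fold change -2.63 with SE 0.39, edgeR adjusted p = 0.000169). This was the largest decrease among the members, 6.19-fold.

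Hexa had 1038, 1283, 990.5 and 1418 CPM in microglia and 653, 661, 738 and 712 CPM in MDM, again with no overlap (log2 fold change -0.78 with SE 0.15, edgeR adjusted p = 0.00164). Glb1, lysosomal beta-galactosidase, fell from 209, 241, 176 and 202 CPM to 138, 96.6, 101 and 105 CPM (log2 fold change -0.91 with SE 0.18, edgeR adjusted p = 0.00193). Gusb (beta-glucuronidase), Galns (a sulfatase for keratan sulfate) and Gaa (the glycogen-degrading acid alpha-glucosidase) passed as well, with log2 fold changes of -0.71, -0.67 and -1.02 and edgeR adjusted p of 0.00431, 0.00707 and 0.0167. Gaa was the 1 member of this set whose libraries overlapped, because the MDM library of number 431 was at 152 CPM and the lowest microglial library at 143. The 7 other glycan hydrolases did not pass. Man2b1, lysosomal alpha-mannosidase, was at 829, 1039.8, 731 and 856 CPM in microglia and at 1095, 1056, 989 and 949 in MDM, which overlapped. Fuca1, the alpha-fucosidase, was at 447 ± 40.7 and 430.1 ± 34.6 CPM (SD, n = 4 each).

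In the lipid role, Smpd1, acid sphingomyelinase, was lower in MDM, at 30.6, 31.2, 20.3 and 17.1 CPM against 60.05, 57.7, 43.6 and 53.2 CPM in microglia (log2 fold change -1.11 with SE 0.21, edgeR adjusted p = 0.00121). The other 6 genes of this role, Lipa, Psap, Asah1, Arsa, Galc and Npc2, had log2 fold changes between -0.62 and 0.40 and did not pass. Psap, whose protein is cut into the saposins that present sphingolipids to their hydrolases, was at 1054, 1224, 964 and 863 CPM in microglia and at 1036, 987, 742 and 913 in MDM. These ranges overlapped.

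Grn, the gene of progranulin, a lysosomal glycoprotein whose loss causes lysosomal storage in neurons (ENSMUSG00000034708, chromosome 11, 102430315 to 102437048, mm10), was at 2848, 3349.8, 3056 and 3611 CPM in microglia and 1451, 1355, 1598 and 1415 CPM in MDM. No MDM library came near the microglial range (log2 fold change -1.14 with SE 0.15, edgeR adjusted p = 5.4e-05). Tpp1, a tripeptidyl peptidase (ENSMUSG00000030894, chromosome 7, 105744811 to 105752235, mm10), was at 775, 647, 506 and 700.3 CPM in microglia and 332, 330.1, 308 and 392 in MDM (log2 fold change -0.95 with SE 0.14, edgeR adjusted p = 0.000127). Scpep1, a serine carboxypeptidase, did not pass, at 474, 285, 277 and 311 CPM in microglia and 372, 441, 332 and 406 in MDM.

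Cd63, a tetraspanin of late endosomes and lysosomes (ENSMUSG00000025351, chromosome 10, 128900989 to 128912822, mm10), had the smallest p of the members. It was at 1385, 1398, 1385 and 1716 CPM in microglia and at 532, 455, 655 and 603 CPM in MDM (log2 fold change -1.39 with SE 0.12, edgeR adjusted p = 1.84e-06), a 2.62-fold difference. Npc1, the membrane partner of Npc2 in cholesterol export, was lower by a smaller step, from 106, 82.5, 104 and 95.8 to 63.1, 67.4, 75.99 and 66.9 CPM (log2 fold change -0.50 with SE 0.17, edgeR adjusted p = 0.0403). The abundant lysosomal membrane glycoproteins Lamp1 and Lamp2 did not pass (-0.52 and -0.33, edgeR adjusted p = 0.0545 and 0.109), nor did the calcium channel gene Mcoln1, Laptm4a or Laptm5.

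In the proton pump, Atp6v0a1, a V0 subunit a isoform, was lower in MDM (76.7, 114, 88.04 and 92.3 CPM in microglia against 37.2, 50.6, 44.8 and 46.6 in MDM, log2 fold change -1.05 with SE 0.21, edgeR adjusted p = 0.00214), as was the V1 gene Atp6v1c1 (537, 426, 497 and 497 CPM in microglia against 267, 320.3, 306 and 355 in MDM, log2 fold change -0.65 with SE 0.13, edgeR adjusted p = 0.0022). The small subunit genes Atp6v0e and Atp6v1f were higher in MDM, both by 0.42 on the log2 scale (edgeR adjusted p = 0.0317 and 0.0178). Both higher calls were lost with upper-quartile normalization (edgeR adjusted p = 0.0785 and 0.0572, with 0 members higher and 17 lower) and without the filter on low counts (0.0672 and 0.0505, with 0 higher and 14 lower). The call for Npc1 was lost without that filter too (edgeR adjusted p = 0.0828). Genes called in either direction were 3491 with upper-quartile normalization and 3060 without the filter, against 3442 in the main fit. The proteolipid gene Atp6v0c, which forms the rotating ring of V0, did not pass, at 358, 380.4, 362 and 402 CPM in microglia and 321, 367, 364 and 359 CPM in MDM, which overlapped. Of the regulators, Tfe3 was lower (129, 268, 175 and 198 CPM in microglia against 82.3, 122, 127 and 102 in MDM, log2 fold change -0.83 with SE 0.26, edgeR adjusted p = 0.0301).

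The calls for Atp6v0e, Gaa, Npc1 and Tfe3 were each lost when certain single libraries were left out, and the other 13 of 17 were kept whichever library was left out. Their highest edgeR adjusted p was 0.119 for Tfe3 (without microglial library 224), 0.109 for Npc1 (without microglial library 431), 0.0741 for Atp6v0e (without MDM library 718) and 0.0548 for Gaa (without microglial library 224). Microglial markers, MDM markers and those of other cells moved with this comparison. Summed markers of dendritic cells (10 genes, all with counts in both groups) were at 33.1 to 58.6 CPM in microglia and 1232 to 2758 in MDM. Those of T and NK cells were at 1.17 to 12.8 CPM in microglia, where Cd3e, Gzmb and Ncr1 were at 0, and 28.7 to 170 in MDM, where all 10 had counts. Glioma and progenitor markers were at 121 to 385 CPM in microglia and 12.01 to 24.6 in MDM, where Sox2 and Dll3 of the 9 were at 0. Astrocyte and neuron markers were at 101 to 144 CPM in microglia (Syt1 of 8 at 0) and 16.0 to 23.2 in MDM (Aqp4 and Syt1 at 0). Myelin markers were at 158 to 208 CPM in microglia (Mog of 8 at 0) and 217 to 246 in MDM (Mog and Ermn at 0). Their part in the result was not tested, and in bulk samples fewer cells of a type and less RNA per cell cannot be told apart.

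**Figure D2:**
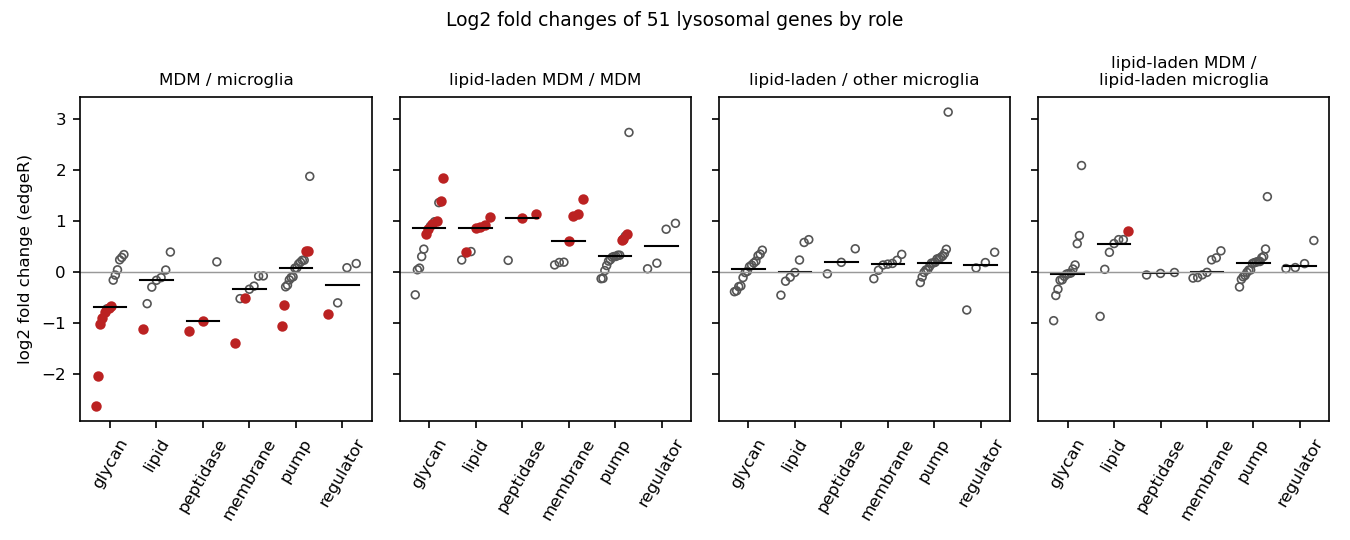
Log2 fold changes (y axis, edgeR) of the 51 members by role (x axis) in 4 comparisons. Each point is a gene, filled red where the adjusted p over all genes was under 0.05, and black bars are medians; lipid-laden MDM against MDM has 20 filled points, all above 0, and lipid-laden against other microglia has none.

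Lipid-laden MDM were compared with MDM, to describe lipid load within cells of blood origin. Lysosomal genes rose: 6 of 14 glycan hydrolases, 5 of 7 lipid hydrolases and lipid-binding proteins, Tpp1 and Grn, 4 of 7 membrane proteins and 3 of 16 pump genes. No member fell, and no regulator passed in this edgeR fit. These 20 members higher and 0 lower compare with 5.21% and 2.96% of all genes. The median log2 fold change was 0.61 over the members, 0.87 over the 21 genes of the glycan and lipid roles and 0.31 over the pump, against 0.04 over all genes. The 4 MDM libraries are the same as in the comparison with microglia, so the values of these 2 comparisons are not independent. Calls rest in part on single libraries: 10 members passed without lipid-laden MDM library 224 and 11 without library 718, with no change of direction. Without both lipid-laden libraries of number 221, 20 passed, where 1059 of the 14843 genes tested did. Counts over all genes are not given here for the fits without library 224 or 718.

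The lipid-handling genes are given first. Lipa, lysosomal acid lipase, which frees cholesterol and fatty acids from cholesteryl esters and triglycerides (ENSMUSG00000024781, chromosome 19, 34492318 to 34527474, mm10), was at 357, 444, 317 and 433 CPM in MDM and 558, 914 and 746 CPM in lipid-laden MDM. All 3 lipid-laden libraries were above all 4 others (log2 fold change 0.93 with SE 0.20, edgeR adjusted p = 0.00983). Psap (ENSMUSG00000004207, chromosome 10, 60277627 to 60302597, mm10) was at 1036, 987, 742 and 913 CPM in MDM and 1046, 1852 and 2156 CPM in lipid-laden MDM (log2 fold change 0.87 with SE 0.20, edgeR adjusted p = 0.0143). Here lipid-laden library 221 lay just above the highest MDM library, and the other 2 were far above it. Without lipid-laden library 718 the Psap call was lost (edgeR adjusted p = 0.102).

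Npc2, the soluble cholesterol-binding protein, rose by a small and even step, from 950.2, 872, 873 and 922 to 1193, 1183 and 1207 CPM (log2 fold change 0.40 with SE 0.11, edgeR adjusted p = 0.0389). Smpd1 was at 30.6, 31.2, 20.3 and 17.1 CPM in MDM and 40.8, 47.4 and 49.3 in lipid-laden MDM (log2 fold change 0.89 with SE 0.22, edgeR adjusted p = 0.0221). Galc, which splits galactosylceramide, a major lipid of myelin, was at 18.2, 18.7, 9.89 and 16.5 CPM in MDM and 32.2, 36.3 and 31.9 in lipid-laden MDM (log2 fold change 1.08 with SE 0.31, edgeR adjusted p = 0.0399). In all 3 genes the lipid-laden libraries lay above every MDM library. Arsa, the sulfatase for the myelin lipid sulfatide, did not pass (28.3, 32.7, 35.7 and 15.9 CPM in MDM and 20.9, 34.8 and 55.8 in lipid-laden MDM), and neither did the acid ceramidase gene Asah1 (975, 1040.3, 619 and 935 CPM in MDM and 1014, 1140.4 and 1007 in lipid-laden MDM).

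Among glycan hydrolases, Naglu was at 163, 256 and 289 CPM in lipid-laden MDM, above the MDM range of 57.9 to 70.9 (log2 fold change 1.84 with SE 0.23, edgeR adjusted p = 0.000222). This was a 3.59-fold increase. Glb1 was at 187, 241 and 233 CPM, above its MDM range of 96.6 to 138 (log2 fold change 1.00 with SE 0.19, edgeR adjusted p = 0.0046). Galns, Hexa, Gusb and Arsb rose as well, by 0.94, 0.85, 0.75 and 1.40 on the log2 scale (edgeR adjusted p = 0.00325, 0.00412, 0.0127 and 0.042). Gaa, at 125, 206 and 235 CPM, missed the threshold, and library 221 was within the MDM range. Sgsh, a heparan sulfate sulfamidase, was low throughout, at 6.41, 10.1, 1.95 and 5.34 CPM in MDM and 18.8, 11.2 and 15.97 CPM in lipid-laden MDM. Its lipid-laden values were all higher, and it did not pass. Fuca1 was at 469.7, 444 and 451 CPM in lipid-laden MDM and did not pass.

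Grn was at 2387, 3190.5 and 3511 CPM in lipid-laden MDM, where no MDM library was above 1598 (log2 fold change 1.06 with SE 0.16, edgeR adjusted p = 0.000773). Tpp1 was at 688, 849 and 708 CPM, against at most 392 in MDM (log2 fold change 1.14 with SE 0.15, edgeR adjusted p = 0.000242). Both carry the M-box in the stretches printed above. Cd63 was at 1586, 1453 and 1488 CPM, a 2.69-fold increase with the smallest p of the members (log2 fold change 1.43 with SE 0.13, edgeR adjusted p = 3.76e-05). Lamp1 (ENSMUSG00000031447, chromosome 8, 13159161 to 13175338, mm10) was at 864, 999.5, 583 and 889 CPM in MDM and 1586, 2056 and 1706 CPM in lipid-laden MDM (log2 fold change 1.10 with SE 0.20, edgeR adjusted p = 0.00304). Lamp2 rose less, from 770.4, 839, 556 and 741 to 1018, 1170.4 and 1151 CPM (log2 fold change 0.61 with SE 0.15, edgeR adjusted p = 0.0226). Npc1 rose from 63.1, 67.4, 75.99 and 66.9 to 109, 186 and 156 CPM (log2 fold change 1.14 with SE 0.18, edgeR adjusted p = 0.00109). Mcoln1, Laptm4a and Laptm5 did not pass, with log2 fold changes of 0.20, 0.19 and 0.14.

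Of the pump genes 3 of 16 rose, all of them in V1. The genes Atp6v1a, the ATP-splitting subunit A, Atp6v1b2, subunit B, and Atp6v1c1, subunit C, rose. Atp6v1a (ENSMUSG00000052459, chromosome 16, 44085402 to 44139705, mm10) was at 306, 274, 267 and 305 CPM in MDM and 394, 529 and 523 CPM in lipid-laden MDM (log2 fold change 0.74 with SE 0.17, edgeR adjusted p = 0.0129). Atp6v1b2 was at 533, 444, 389 and 526 CPM in MDM and 797, 789 and 651 in lipid-laden MDM (log2 fold change 0.66 with SE 0.19, edgeR adjusted p = 0.0458), and Atp6v1c1 at 267, 320.3, 306 and 355 CPM in MDM and 542, 442 and 461 in lipid-laden MDM (log2 fold change 0.63 with SE 0.14, edgeR adjusted p = 0.0119). None of the 6 V0 genes and neither accessory gene passed in this fit. Atp6v0a1 had the smallest p of the V0 genes (log2 fold change 0.71, edgeR adjusted p = 0.0678). It was at 37.2, 50.6, 44.8 and 46.6 CPM in MDM and 51.1, 88.2 and 79.9 in lipid-laden MDM, without overlap. With the replicate block Atp6v0a1 passed (edgeR adjusted p = 0.00897), as it did in DESeq2 (DESeq2 adjusted p = 0.0457). Atp6v0c lay at 348, 419 and 392 CPM in lipid-laden MDM, near the 321 to 367 of MDM. Atp6v0d2, a V0 subunit d isoform known from osteoclasts and macrophages, was at 4.43, 1.51, 0 and 4.53 CPM in MDM and 25.1, 5.84 and 22.01 CPM in lipid-laden MDM, a wide spread, and it did not pass. The regulators Tfeb and Tfe3 were at 18.4 ± 6.18 and 123 ± 44.4 CPM in lipid-laden MDM and 17.6 ± 3.80 and 109 ± 20.7 in MDM (SD, n = 3 and 4). Mitf was at 10.1, 10.3, 11.5 and 11.3 CPM in MDM and 20.7, 19.1 and 23.1 in lipid-laden MDM, without overlap and without passing the edgeR test. With DESeq2 and the replicate block Mitf passed (1.01, DESeq2 adjusted p = 0.0243), as did Neu1 (0.0391) and Atp6ap1 (0.0406).

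Whichever library was left out, 9 of the 20 calls were kept (Hexa, Glb1, Galns, Naglu, Tpp1, Grn, Lamp1, Cd63 and Npc1). Gusb, Psap and Atp6v1a lost theirs without lipid-laden library 224 or 718, Lipa without 224 (edgeR adjusted p = 0.0634) and Atp6v1c1 without 221 (0.0606). Lamp2 and Smpd1 lost theirs without lipid-laden library 224 or 718 or MDM library 431, Smpd1 also without MDM library 718. For Arsb, Npc2, Galc and Atp6v1b2, leaving out any of 7, 7, 9 and 11 libraries ended the call, with adjusted p up to 0.160, 0.122, 0.113 and 0.135. Npc2 and Atp6v1b2 also missed the threshold with RLE factors (edgeR adjusted p = 0.0531 and 0.0568), and Npc2, Galc and Atp6v1b2 without the filter on low counts (0.134, 0.0833 and 0.0588). The library numbers matched in 3 cases, and each of the 20 members was higher in the lipid-laden library in 3 of 3 such pairs. The 20 were called on these same libraries, so this count is not separate support for them. By the rule used, the numbers did not pair these 2 groups. Microglial markers were higher and MDM markers lower in lipid-laden MDM, with the ranges given above. Dendritic cell markers were at 1232 to 2758 CPM in MDM and 187 to 248 in lipid-laden MDM (10 of 10 genes with counts in both), and glioma and progenitor markers at 12.01 to 24.6 and 65.1 to 134. Astrocyte and neuron markers were at 16.0 to 23.2 CPM in MDM and 31.9 to 97.5 in lipid-laden MDM. Their part in the rise of lysosomal genes was not tested.

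**Figure D3:**
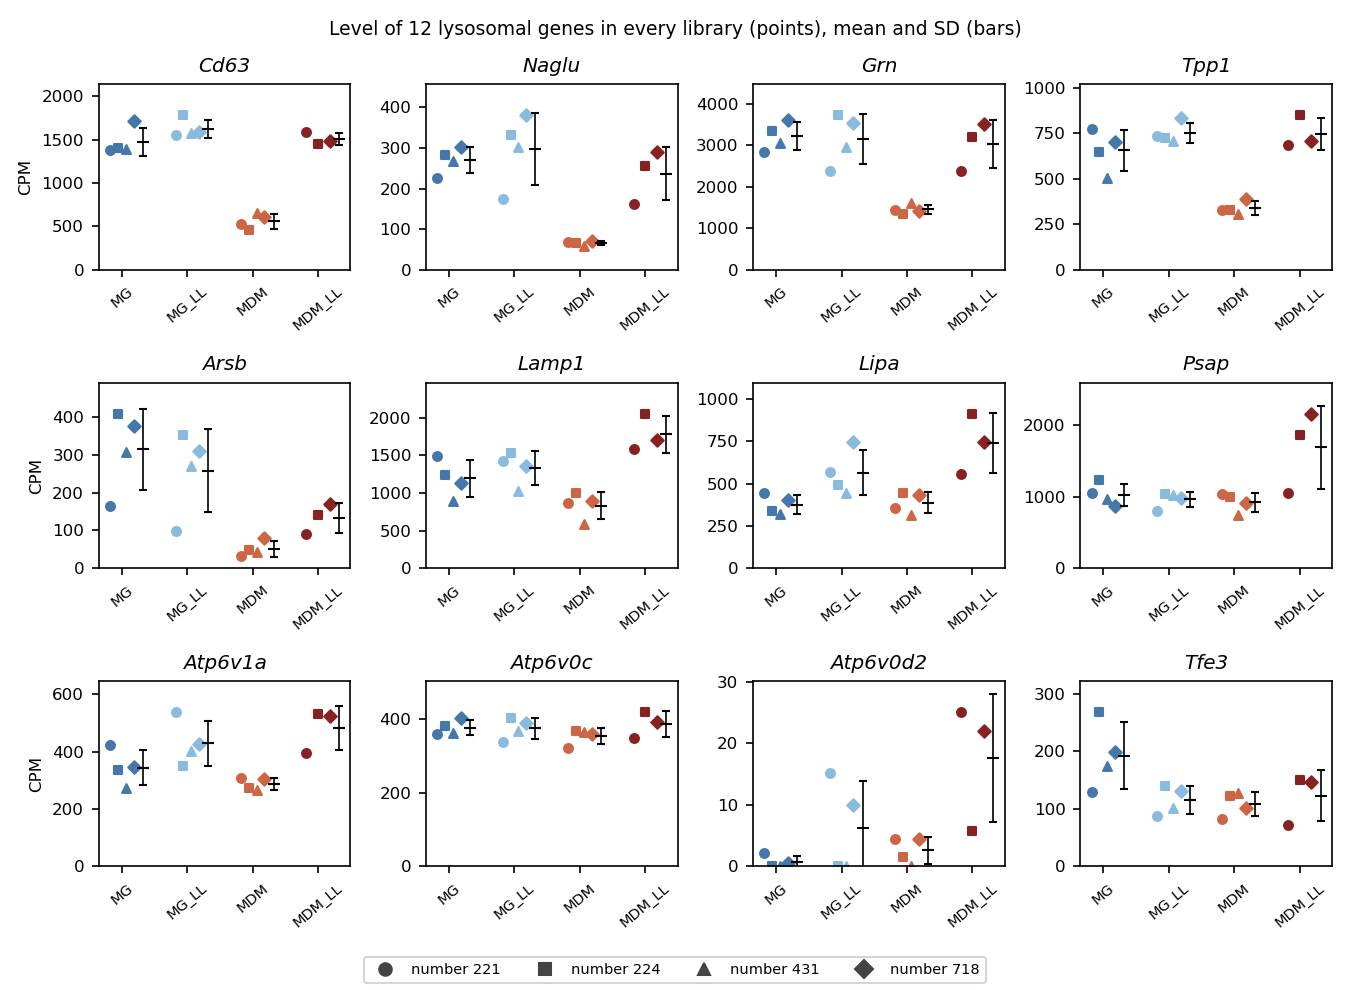
Level in CPM (y axis, from 0) of 12 members in every library of the 4 groups (x axis, MG microglia, LL lipid-laden). Points are libraries with the shape giving the title number, and bars are the mean ± SD; for Cd63, Naglu, Grn and Tpp1 the 4 MDM libraries lie below all others, and for Lipa and Lamp1 the 3 lipid-laden MDM libraries lie above all MDM and microglial libraries.

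Lipid-laden microglia were compared with microglia. No member passed, where 0% of all genes were higher and 0% lower in edgeR, and DESeq2 and limma-voom also called 0 members. At an unadjusted p under 0.05 there were 9, and the share of all genes at that p is not given here, so no excess can be read from it. The median log2 fold change was 0.16 over the members and -0.02 over all genes. Of the 51 members 35 were positive, where 47.6% of all genes were, and this was not tested. The 5 members with the smallest p were Smpd1 (0.64, edgeR adjusted p = 0.349), Lipa (0.58, edgeR adjusted p = 0.349), Atp6v1f (0.37, edgeR adjusted p = 0.349), Tfe3 (-0.74, edgeR adjusted p = 0.376) and Atp6v1g1, a V1 stalk subunit (0.45, edgeR adjusted p = 0.379).

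By library, Lipa was at 446, 335, 321 and 404 CPM in microglia and 572, 492, 444 and 748 CPM in lipid-laden microglia. It was higher in the lipid-laden library in 4 of 4 pairs of the same number, although the groups overlapped by 1 library. The share of all genes higher in 4 of 4 pairs is not given here. Smpd1 was at 60.05, 57.7, 43.6 and 53.2 CPM in microglia and 75.2, 71.2, 95.96 and 91.8 CPM in lipid-laden microglia, with no overlap. Naglu, Cd63 and Grn had overlapping ranges in microglia. Naglu was at 174, 332, 303 and 379.7 CPM and Grn at 2388, 3719, 2951 and 3527 CPM in lipid-laden microglia, where library 221 was lowest for both. Atp6v0d2 was listed at 2.17, 0.108, 0 and 0.506 CPM in microglia and 15.2, 0, 0 and 10.1 CPM in lipid-laden microglia, so its level there came from 2 libraries.

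Same-numbered microglial libraries deviated together (processing notes), so the fit with the replicate number as a block is given too. With it, 0.404% of all genes were higher and 0.397% lower, and 1 member passed. Tfe3 was lower in lipid-laden microglia, at 88.5, 141, 101 and 131 CPM against 129, 268, 175 and 198 (-0.74 without and -0.72 with the block, edgeR adjusted p = 0.0398 with it). It was lower in 4 of 4 pairs, a count on the same numbers as the block and so not separate support for the call. Without both lipid-laden libraries of number 221 the blocked edgeR fit called 0 members. DESeq2 with the block called Tfe3 lower and 6 members higher (Lipa, Npc2, Scpep1, Atp6v0e, Atp6v1f and Atp6v1g1, with adjusted p of 0.000296 to 0.0326). Summed microglial and MDM markers overlapped between these groups. Astrocyte and neuron markers (8 genes) did not, at 101 to 144 CPM in microglia, where Syt1 was at 0, and 49.2 to 96.2 in lipid-laden microglia, and their part in these values was not tested.

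The lipid-load effect was then compared between origins, as the log2 fold change in MDM minus that in microglia. It was larger in MDM for 4 members, Cd63, Naglu, Grn and Tpp1, and smaller for none in edgeR, where 1.60% of all genes were higher and 0.930% lower. The median difference was 0.36 over the members and 0.10 over all genes. For Cd63 the log2 fold change was 1.43 in MDM and 0.14 in microglia, a difference of 1.29 (SE 0.18, edgeR adjusted p = 0.00314). Naglu differed by 1.70 (1.84 and 0.14, SE 0.31, edgeR adjusted p = 0.00907). The difference was 1.09 for Grn (1.06 and -0.03, SE 0.22, edgeR adjusted p = 0.0132) and 0.94 for Tpp1 (1.14 and 0.19, SE 0.20, edgeR adjusted p = 0.019). Hexa, next by p, did not pass (0.84, edgeR adjusted p = 0.0579). In all 4 called genes the microglial groups with and without lipid load overlapped, and the MDM libraries lay below all others.

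With the replicate number as a block, 10 members were called, all with the larger effect in MDM, where 2.82% of all genes were higher and 1.61% lower. The added members were Hexa (0.84, edgeR adjusted p = 0.0129 with the block), Gusb (0.85, 0.0368), Arsb (1.68, 0.00365), Lamp1 (0.94, 0.00752), Atp6v0a1 (0.91, 0.0213) and Tfe3 (0.92, 0.0451), with values of the difference from the fit without it. By the rule used, the numbers paired the microglial libraries and not the MDM libraries. Without the block, the call for Grn was lost without lipid-laden MDM library 718 (edgeR adjusted p = 0.0578) and that for Tpp1 without lipid-laden MDM library 224 or 718 (up to 0.0674). With DESeq2 the effect was larger in MDM for 10 members and smaller for Atp6v1f (-0.54, DESeq2 adjusted p = 0.0395). In edgeR the count was 2 without library 718 and 7 without lipid-laden MDM library 221. Lipa, chosen here after its values were seen, at 0.93 in MDM and 0.58 in microglia, is not shown to differ (difference 0.35, SE 0.28, edgeR adjusted p = 0.585).

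Lipid-laden MDM and lipid-laden microglia were compared last. Psap was higher in MDM and was the 1 member called, where 2.20% of all genes were higher and 0.579% lower. The median log2 fold change was 0.06 over the members and -0.03 over all genes. It was at 804, 1033, 1027 and 974 CPM in lipid-laden microglia and 1046, 1852 and 2156 CPM in lipid-laden MDM (log2 fold change 0.81 with SE 0.20, edgeR adjusted p = 0.0427). The lowest lipid-laden MDM library lay only just above the highest microglial one, and the call was lost in 9 of 15 fits that left out 1 library (edgeR adjusted p up to 0.210, without lipid-laden MDM library 718). The next members by p were Smpd1, at 75.2, 71.2, 95.96 and 91.8 CPM in lipid-laden microglia against 40.8, 47.4 and 49.3 in lipid-laden MDM (-0.87, edgeR adjusted p = 0.0529), Asah1 (0.64, edgeR adjusted p = 0.129), Sgsh (2.09, edgeR adjusted p = 0.13) and Manba, lysosomal beta-mannosidase (0.72, edgeR adjusted p = 0.16). With other scaling the calls changed. Psap and Smpd1 passed with RLE factors (1 higher, 1 lower), and Smpd1 alone with upper-quartile factors (0 higher, 1 lower).

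Same-numbered libraries of these 2 groups deviated together, and with the replicate number as a block 2.84% of all genes were higher and 0.990% lower. Asah1 was then higher in lipid-laden MDM (1014, 1140.4 and 1007 CPM against 699, 772, 551 and 683 in lipid-laden microglia, adjusted p = 0.029 in edgeR) and Arsb lower (90.9, 139.7 and 170.4 CPM against 99.5, 353, 272 and 309.7, 0.0413). Psap missed the threshold there (edgeR adjusted p = 0.0526). Cd63, Grn and Tpp1 lay close together in these 2 groups, with log2 fold changes of -0.10, -0.05 and -0.01 and SE of 0.13, 0.16 and 0.15. A p above the threshold does not show that they were the same. MDM markers were higher in every lipid-laden MDM library than in lipid-laden microglia. Dendritic cell markers were at 21.7 to 33.6 CPM in lipid-laden microglia, where Clec9a, Dpp4 and Cd209a of the 10 were at 0, and 187 to 248 in lipid-laden MDM. T and NK cell markers were at 0.102 to 6.43 CPM, with Cd3d, Gzmb, Ncr1, Klrb1c and Il2rb of the 10 at 0, and 46.4 to 104, and glioma and progenitor markers at 173 to 440.2 and 65.1 to 134. Their part in these values was not tested.

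Across the 4 groups, 2 arrangements recurred. MDM lay below every library of the other 3 groups for 13 members (Hexa, Glb1, Galns, Arsb, Naglu, Smpd1, Tpp1, Grn, Cd63, Npc1, Atp6v0a1, Atp6v1c1 and Mitf), an arrangement held by 5.24% of all genes. Lipid-laden MDM lay above every MDM and microglial library for 8 members (Sgsh, Lipa, Npc2, Lamp1, Npc1, Atp6v0d2, Atp6v1h and Atp6ap1), against 1.36% of all genes. They lay above all 3 other groups for Sgsh, Lamp1 and Atp6v1h, against 0.526%. Npc1 had both of the first 2 arrangements, with MDM lowest and lipid-laden MDM above MDM and microglia. These counts describe the libraries and were not tested.

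**Figure D4:**
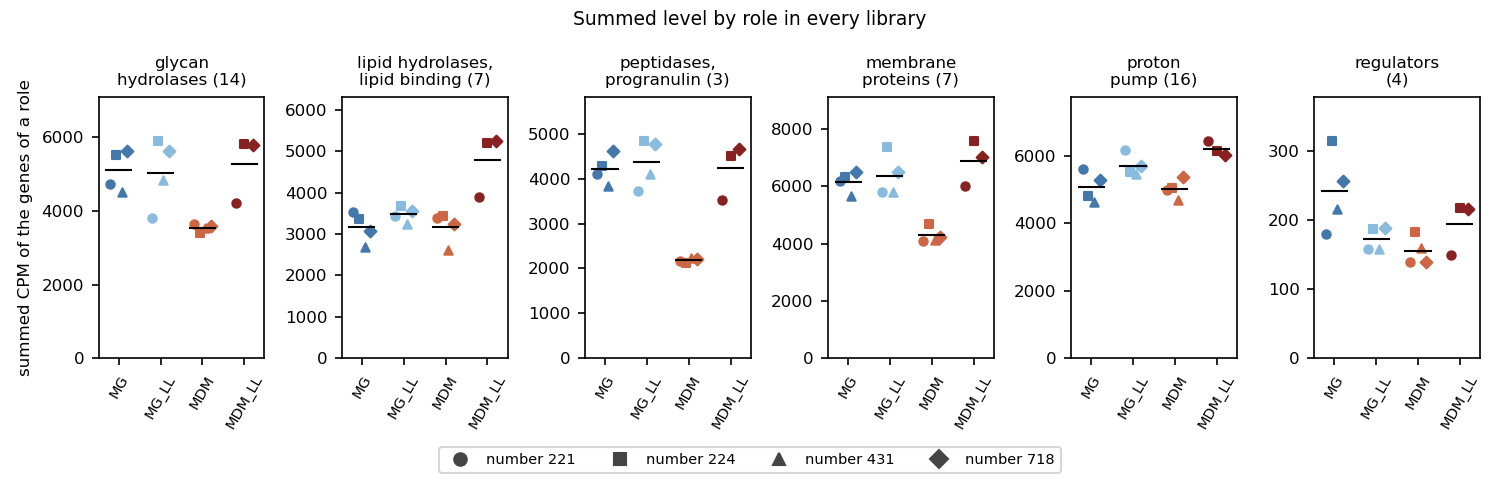
Summed CPM of the members of each role (y axis, from 0, with its own scale in each panel) in every library of the 4 groups (x axis, MG microglia, LL lipid-laden). Points are libraries with the shape giving the title number, and lines are group means; the sums for peptidases with progranulin are 2126 to 2238 in MDM and at least 3528 in every other library.

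Levels were also summed by role. Tpp1, Scpep1 and Grn together gave 4210 ± 329 CPM in microglia, 4361 ± 538 in lipid-laden microglia, 2183 ± 51.5 in MDM and 4234 ± 615 in lipid-laden MDM (SD, n = 4, 4, 4 and 3). Glycan hydrolases were at 5102 ± 556, 5044 ± 944, 3549 ± 101 and 5280 ± 915 CPM, and membrane proteins at 6165 ± 349, 6373 ± 742, 4287 ± 281 and 6881 ± 796. Lipid hydrolases and lipid-binding proteins were arranged otherwise, at 3167 ± 364, 3479 ± 188, 3173 ± 378 and 4789 ± 766 CPM, so that MDM overlapped microglia and the lipid-laden MDM libraries lay above both. The 16 pump genes summed to 5080 ± 450, 5714 ± 332, 5016 ± 275 and 6203 ± 217 CPM. In both lipid-laden groups library 221 was lowest for glycan hydrolases, at 3798 and 4223 CPM, and highest for the pump, at 6188 and 6445 CPM. The 4 regulators, of which Tfe3 gave most, summed to 242 ± 57.8, 172.5 ± 17.2, 155 ± 20.9 and 195 ± 38.8 CPM.

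Of the 51 members, 26 passed in none of the 5 comparisons in edgeR without the block. They included Neu1 (sialidase), Man2b1, Manba, Idua, Ids, Sgsh and Fuca1 among glycan hydrolases, Asah1 and Arsa in the lipid role, Scpep1, the membrane proteins Mcoln1, Laptm4a and Laptm5, 10 of 16 pump genes, and Tfeb, Tfec and Mitf. Mcoln1, the calcium channel with the CLEAR core printed above, lay at 127 ± 9.50, 144 ± 19.9, 121 ± 20.6 and 139 ± 12.1 CPM in microglia, lipid-laden microglia, MDM and lipid-laden MDM (SD, n = 4, 4, 4 and 3). Laptm5 had its lowest value of both lipid-laden groups in library 221, at 1396 and 1375 CPM. Tfec varied widely between libraries of a group, at 48.3, 10.5, 3.50 and 21.9 CPM in lipid-laden microglia and 32.4, 28.00, 1.30 and 10.4 in MDM, where library 431 was lowest in both. Tfeb was at 7.85, 22.9, 15.5 and 19.98 CPM in microglia, lowest in library 221, and at 8.84, 19.3, 24.6 and 17.5 in lipid-laden microglia, where library 221 was again lowest.

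Other lysosomal genes, 122 in 6 lists of which 115 were tested, were read beside the members. In MDM against microglia 11 were higher and 32 lower, where 10.7% and 12.5% of all genes were. No list was tested as a set. Of 33 other hydrolases 4 were higher and 15 lower, among them Pld3, a lysosomal nuclease (-1.85, edgeR adjusted p = 5.45e-06). Gm2a, the activator that presents ganglioside to hexosaminidase, was higher (1.50, edgeR adjusted p = 1.22e-06). Of 29 other membrane proteins and transporters 9 were lower and 0 higher, led by Spns1, Clcn7 and Slc36a1. Of 12 genes of hydrolase sorting, Sort1 (-2.67, edgeR adjusted p = 0.000121) and Gnptg were lower. Of 14 autophagy genes 4 were higher, led by Gabarapl2 (1.01, edgeR adjusted p = 9.47e-05), Uvrag and Becn1, and 1 was lower. The lysosomal mTORC1 and tethering list had 3 higher and 4 lower of 22, and of 5 other pump subunits 1, Atp6v0e2, was lower.

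In lipid-laden MDM against MDM, 22 of the 115 rose and 5 fell, where 5.21% and 2.96% of all genes did. Of 33 other hydrolases 12 rose and 3 fell, among them Pld3 (1.86, edgeR adjusted p = 6.94e-05) and Lgmn, the asparaginyl endopeptidase (0.86, edgeR adjusted p = 0.000159). Of 29 membrane proteins and transporters 5 rose, led by Cd68 (0.76, edgeR adjusted p = 0.000343), Slc11a1 and the chloride transporter Clcn7. Sort1 (1 of 12 sorting genes), Fnip2 and Vps33a (2 of 22) and Atp6v0e2 (1 of 5) rose as well. Of 14 autophagy genes Gabarapl2 (-0.85, edgeR adjusted p = 0.00292) and Uvrag fell and Wipi1 rose. Lipid-laden microglia differed from microglia in none of the 115, where 0% of all genes were higher and 0% lower. With the replicate block Cd68 was higher (0.42, edgeR adjusted p = 0.146 without and 0.0361 with the block), where 0.404% of all genes were. Between lipid-laden MDM and lipid-laden microglia, 2 of the 115 were higher in MDM and 0 lower. This is near the shares over all genes (2.20% and 0.579%). The 2 were Acp5, tartrate-resistant acid phosphatase (3.62, edgeR adjusted p = 0.000422), and Gm2a (0.66, edgeR adjusted p = 0.0135). The lipid-load effect was larger in MDM for 6 of the 115 and smaller for 3, where 1.60% and 0.930% of all genes were. Lgmn (0.80, edgeR adjusted p = 0.00608) and Pld3 were among the 6 and Gabarapl2 (-1.02, edgeR adjusted p = 0.0141) among the 3.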

How the data were processed

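Bulk RNA was sequenced from macrophages sorted from mouse brain tumours (15 libraries in 4 groups). The deposited values are raw counts per gene, whole numbers with a different total in each library, keyed by Ensembl identifiers with coordinates per the file headers. Per the submitters' processing notes the genome build is mm10. No aligner, counter or strand setting is given in the sources used here. Per the labels' protocols, cDNA was primed with oligo-dT and made by template switching. All 15 columns were matched to samples by their labels, and 1 entry without a gene identifier, holding 0 counts, was left out.

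Counts were tested in R 4.3.3 with edgeR 4.0.16 (TMM factors, filterByExpr with a minimum count of 10 and a minimum total of 15, glmQLFit and glmQLFTest on all 15 libraries, so that the 4 groups shared 1 estimate of the spread). P-values were adjusted by Benjamini-Hochberg over the 14843 genes tested, with 0.05 as threshold. SE is the log2 fold change divided by the square root of F. CPM used TMM-scaled library sizes. Levels per kb used the merged length of all annotated exons of a gene in GENCODE M21, whose coordinates were the same for 51 of 51 members. Promoter windows came from RefSeq (GRCm38.p6). DESeq2 1.42.0, limma 3.58.1 (voom), RLE and upper-quartile factors, no filter, library sizes without the members, a replicate block, only the groups compared, and left-out libraries were the alternatives. The code was tested on simulated data.

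Fold changes with adjusted p are given for members called with or without the block and, where fewer than 5 were called without it, for the 5 with the smallest p; other members are given by levels, ranges and counts. The members and lists were chosen with earlier results of these data known. No pair of libraries of 1 group was as alike as counting error alone would make it (chi-square over degrees of freedom at least 18.6). The labels do not say what a shared number means. Deviations of same-numbered libraries from their group means correlated at 0.124 to 0.256 between the 2 microglial groups and 0.107 to 0.168 between the 2 lipid-laden groups, over 0.1 in every pair, so the numbers were taken to pair them. Between MDM and microglia (0.0152 to 0.150) and between lipid-laden MDM and MDM (0.0272 to 0.123) they were not. Missing this rule does not show that those libraries are unpaired, since all 4 libraries of number 224 shared counts of Ddx3y.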

Additional observations from a re-analysis of the deposited data

Results flagged for a closer look

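The lipid-load effect, as a log2 fold change in MDM minus that in microglia, differed between the origins in a test of the difference itself (the edgeR contrast) for 4 members. The differences were 1.29 for Cd63, 1.70 for Naglu, 1.09 for Grn and 0.94 for Tpp1, and each was larger in MDM.

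Among the 153 sets of 4 libraries examined (51 members in 3 groups), 4 held a library whose gap to the nearest other, divided by the range, was above Dixon's 95% critical value. Chance gives about 1 in 20. Cd63 in microglia was at 1716 CPM in library 718 and between 1385 and 1398 in the others. Atp6v1e1, a V1 stalk subunit, was at 126 CPM in microglial library 431 and between 174 and 181 in the others. Tfec in microglia was at 28.3 CPM in library 221 and between 10.8 and 13.5 in the others. Atp6v1f in lipid-laden microglia was at 263 CPM in library 718 and between 319 and 328 in the others.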

How the results depend on the processing

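No direction changed. Over 63 results for single members and 1628 values under alternatives, 1442 kept their side of the threshold, 103 lost it, 83 gained it and 0 reversed. For the fits that left out 1 library, counts over all genes are not given here. They gave 14 to 18 members called in MDM against microglia and 10 to 22 in lipid-laden MDM against MDM. Between the lipid-laden groups the count was 0 to 1, and in lipid-laden microglia against microglia 0. It was 2 to 7 for the difference of lipid-load effects. That difference was called in 11 members with DESeq2 (10 larger in MDM, 1 smaller), 10 with the replicate block, 17 with DESeq2 and the replicate block (15 larger and 2 smaller, Atp6v0e and Atp6v1f), and 11 without both lipid-laden libraries of number 221 with the block (an alternative added after seeing the data). Between the lipid-laden groups the count was 2 with RLE factors, 3 with DESeq2, 3 with limma-voom, 2 with the replicate block, 6 with DESeq2 and the block, 2 without both lipid-laden libraries of number 221 with the block, and 0 with only the 2 groups in the fit. In lipid-laden microglia against microglia 1 member was called with the replicate block and 7 with DESeq2 and the block (6 higher, 1 lower). With the block, MDM against microglia gave 3 higher and 17 lower, where 3969 of the 14843 genes tested were called in either direction. This added Asah1 (0.40, edgeR adjusted p = 0.0116), Lamp1 (-0.53, 0.00164) and Lamp2 (-0.34, 0.0173). Lipid-laden MDM against MDM gave 22 higher with the block, where 1529 genes were called in either direction. This added Gaa (1.10, edgeR adjusted p = 0.00895) and Atp6v0a1 (0.71, 0.00897). In both, the shared number did not pair the libraries by the rule used. The cause of these shifts was not tested. Fitting only the groups compared was not run for the difference of effects, which needs all 4 groups.

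Over all genes, the difference of effects was called in 375, against 657 with the block, 960 with DESeq2 and 1565 with both. It was called in 385 with the block and without both lipid-laden libraries of number 221. Lipid-laden microglia against microglia gave 0, against 119 with the block, 17 with no filter, 164 with DESeq2, 602 with DESeq2 and the block, and 29 with the block and without both lipid-laden libraries of number 221. The lipid-laden groups gave 413, against 798 with DESeq2, 1204 with DESeq2 and the block, and 176 with only the 2 groups. They gave 406 with RLE factors, 413 with upper-quartile factors, 561 with limma-voom and 569 with the block. With the block and without both lipid-laden libraries of number 221 they gave 384. Lipid-laden MDM against MDM gave 1213, against 1982 with DESeq2 and 2552 with DESeq2 and the block. No scaling moved the median of all genes by more than 0.0819 (log2). Sgsh and Atp6v0d2 had the fewest counts, 976 and 894 over all libraries, and what depth limits was not tested.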
